A study of Mus musculus with 43 samples.

Results

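The subject is the genotype effect that 4 glial cell types had in common: the difference between Rag2-/- mice and immunocompetent littermates, taken as 1 common effect over astrocytes, microglia, oligodendrocytes and oligodendrocyte precursor cells (OPCs). All 43 libraries of the series entered, 22 from controls and 21 from Rag2-/- mice, and no library was left out. Each library was made from the cells purified as 1 type from 1 mouse, and 12 mice in 6 littermate pairs gave them all. A gene counted as moving together when its fitted log2 fold change had the same sign in the 4 cell types, and 11503 of the 21368 genes tested for the common effect had enough counts in every cell type to be judged in this way.

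The mice were 3 months old and came from B6.Cg-Rag2tm1.1Cgn/J animals crossed with C57BL/6J. Cells were purified from cortical grey matter by immunopanning, in which a suspension passes over plates coated with antibodies to CD45 (microglia), PDGFRα (OPCs), GalC (oligodendrocytes) and HepaCAM (astrocytes). The Rag2-/- animals carried 2 deleted alleles of Rag2 in every cell, so glia and lymphocytes lacked the gene alike, and the extent of the deleted stretch is not given in the sources used here. The controls of pairs 1, 2, 3 and 5 were Rag2+/- and those of pairs 4 and 6 were Rag2+/+, both immunocompetent and raised in the same colony as the Rag2-/- mice. Both sexes were used, and in pair 6 the control was male and the Rag2-/- mouse female. Astrocytes and microglia came from 6 mice of each genotype, oligodendrocytes from 4 and 4 (pairs 1, 3, 5 and 6), and OPCs from 6 controls and 5 Rag2-/- mice. Libraries were pooled by cell type for sequencing, with both genotypes on a lane, so a difference between lanes cannot be told apart from one between cell types but falls on both genotypes alike.

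Rag2 encodes one of the proteins of the recombinase that cuts and rejoins the antigen receptor genes in developing T and B cells, and mice without it have neither cell type. The other, Rag1, lies beside Rag2 in the genome and is read from the opposite strand. Iftap, the gene on which the results turn, encodes a protein named for intraflagellar transport, the traffic of cargo along the cilium, and it overlaps both recombinase genes.

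The deleted gene was close to the limit of detection in all cells. Rag2 had no count in the 21 libraries of Rag2-/- mice, and among the 22 control libraries it had 1 count in each of 2 microglia libraries and 4 counts in 1 OPC library. At this depth Rag2 itself therefore could not check the labels. On GRCm39, Rag2 spans chr2:101455063-101462874 on the plus strand, Rag1 chr2:101468603-101479877 on the minus strand and Iftap chr2:101391125-101484020, also on the minus strand, so that Iftap encloses both. Of the 37 transcripts of Iftap in the GENCODE M39 annotation, 25 start inside Rag2, 5 start beyond it toward Rag1 and 7 start on the far side. The position used by most, by 9 transcripts, is 101459378, which is 313 bases from the coding sequence of Rag2 (101459692 to 101461272). The coding sequence of Iftap (101392538 to 101441001) lies 14061 bases away from Rag2. The exons of Iftap and those of Rag2 share 208 bases, all of them in the coding exon of Rag2 on opposite strands.

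The 2 promoter windows that RefSeq gives for Iftap are shown because 1 of them lies inside the gene that was deleted and the other does not. The sequences are RefSeq's (GRCm38.p6), each matched at a single place to GRCm39, and run 5′ to 3′ on the strand of Iftap from 250 bases before to 50 bases after the start. Capitals mark the 50 bases from the annotated start onward.
Iftap start 1, chr2:101459327-101459626 (-): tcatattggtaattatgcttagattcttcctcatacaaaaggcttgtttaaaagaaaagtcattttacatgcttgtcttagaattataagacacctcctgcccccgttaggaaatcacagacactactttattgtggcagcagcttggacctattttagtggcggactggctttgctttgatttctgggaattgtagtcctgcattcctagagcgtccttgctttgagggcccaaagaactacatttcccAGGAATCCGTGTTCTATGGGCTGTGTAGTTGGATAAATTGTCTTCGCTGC
Iftap start 2, chr2:101451342-101451641 (-): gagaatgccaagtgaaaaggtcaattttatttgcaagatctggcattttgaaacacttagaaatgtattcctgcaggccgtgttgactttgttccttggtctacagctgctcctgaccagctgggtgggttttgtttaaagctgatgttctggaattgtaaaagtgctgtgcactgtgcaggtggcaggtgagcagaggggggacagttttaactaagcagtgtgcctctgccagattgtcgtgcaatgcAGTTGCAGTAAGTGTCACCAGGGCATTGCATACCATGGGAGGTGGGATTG
Start 1, at 101459376, lies inside Rag2, in the intron before its coding exon, and none of the 300 bases of its window are in an exon of Rag2. Start 2, at 101451391, lies outside Rag2. The counts are per gene and do not show which start was used.

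Iftap was the single gene called in the common fit, and it was lower in the Rag2-/- mice. In the astrocytes of the 6 controls it had 56 to 156 counts per library, 528 in all, and in those of the 6 Rag2-/- mice it had none. In microglia the controls had 14 to 131 counts and the Rag2-/- libraries had 0, except for 1 count in replicate 6. In oligodendrocytes the 4 controls had 34, 41, 36 and 77 counts and the Rag2-/- libraries 0, 0, 0 and 2. In OPCs the controls had 51 to 208 counts and the 5 Rag2-/- libraries 0, 0, 0, 0 and 2. The genotypes did not overlap in any cell type, and in 21 of 21 littermate comparisons the Rag2-/- library was the lower one. All 5 counts found in Rag2-/- libraries, against 1761 in controls, came from 1 mouse, replicate 6.

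The common effect on Iftap was estimated by edgeR's quasi-likelihood test, with cell type and sex in the model and with Benjamini-Hochberg adjustment over 21368 genes. Its log2 fold change was -7.88 (SE 0.38) with an adjusted p of 7.03e-20, and 0.00468% of the genes tested were called. Because most Rag2-/- libraries were at 0, this fold depends on the prior count. As a log2 value it ran from -9.51 to -6.98 over 30 alternatives, and from -9.33 to -7.62 with a mouse left out. The bounds that follow take a floor of 3 counts per library. On that scale Iftap was at least 31.8-fold lower in astrocytes, 18.3-fold lower in microglia, 17.6-fold lower in oligodendrocytes and 46.1-fold lower in OPCs. These bounds follow the depth and the control level of each cell type and give no order of effect. The test of a difference between cell types, edgeR's interaction of genotype with cell type, gave Iftap an adjusted p of 0.654. In the fits of single cell types its adjusted p was 1.28e-05 in astrocytes (1 call in 14725 genes, 0.00679%), 5.71e-06 in microglia (1 in 15003, 0.00667%) and 2.84e-05 in OPCs (1 in 16882, 0.00592%), and 0.998 (unadjusted p = 0.00042) in the 8 oligodendrocyte libraries, where 0 of 13802 genes were called and 467 had an unadjusted p under 0.05.

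Libraries of a mouse are not independent, so the effect was also taken over the 12 mice, with the log2 CPM (counts scaled to a fixed library total by TMM) of each library centred on its cell type and averaged within the mouse. Among the 11503 genes with enough counts everywhere, limma called Iftap alone (0.00869% of the genes), with a log2 difference of -5.16 (95% interval -5.73 to -4.60, adjusted p = 5.83e-09), while 390 genes (3.39%) had an unadjusted p under 0.05. Its 6 control mice lay between 2.07 and 3.38 on this centred scale and its 6 Rag2-/- mice between -2.70 and -2.09. Most Rag2-/- libraries were at 0, so the difference of -5.16 depends on the prior count as well. Over 16 alternatives it ran from -7.02 to -5.01, past the lower end of the interval.

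The heterozygous controls allowed the alleles of Rag2 to be compared with the level of Iftap, a comparison chosen after the values were seen. In astrocytes Iftap stood at 13.3 ± 2.13 CPM in Rag2+/+ controls (SD, n = 2) and at 8.46 ± 1.26 CPM in Rag2+/- controls (SD, n = 4). In microglia these levels were 7.89 ± 0.430 and 3.17 ± 0.646 CPM, and in OPCs 11.9 ± 2.88 and 6.61 ± 1.36 CPM. In oligodendrocytes the single Rag2+/+ library had 11.8 CPM and the 3 Rag2+/- libraries 4.24, 5.30 and 6.82 CPM. The Rag2+/+ libraries lay above the Rag2+/- libraries without overlap in each cell type. Averaged over a mouse's cell types, heterozygotes held 54.0% of the wild-type level, a log2 difference of 0.89 with an exact two-sided permutation p of 0.0667, the smallest that 2 mice against 4 can give. An edgeR fit of the 22 control libraries gave Iftap a log2 difference of 1.04 (SE 0.23) and an adjusted p of 0.394. That fit called 0 of 21368 genes, with 1707 at an unadjusted p under 0.05, and Iftap ranked 4 by p. Both Rag2+/+ controls were male, and among male controls alone the difference over mouse averages was 0.94.

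**Figure D1:**
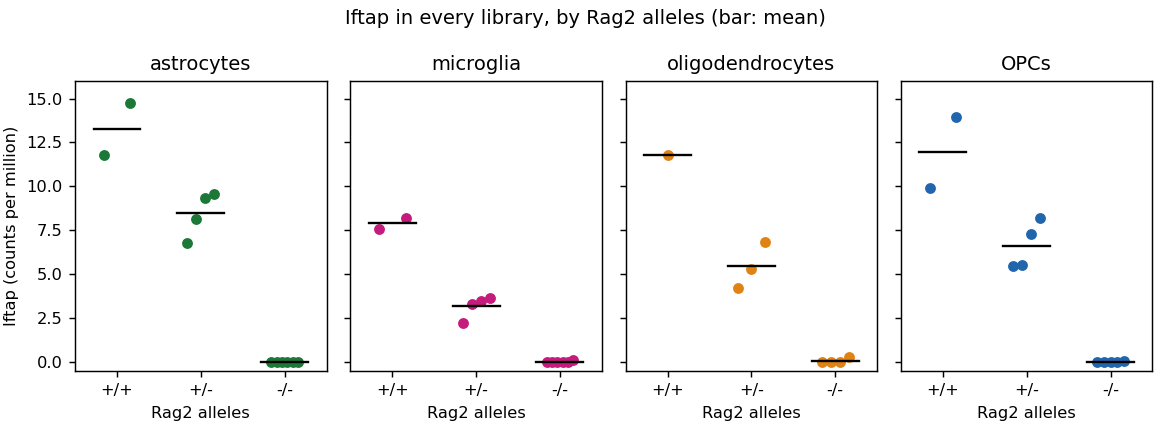
Iftap in CPM (vertical axis) in every library, by Rag2 alleles (horizontal axis), in 1 panel per cell type, where each point is a library and each bar the mean. The Rag2+/+ libraries sit above the Rag2+/- libraries and the Rag2-/- libraries at or near 0 in all 4 panels.

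The genes around Iftap gave no such pattern. Traf6, which encodes a signalling adapter downstream of Toll-like receptors, is the next protein-coding gene, 45.6 kb from Rag2. Its mean level was 45.5 ± 6.64 CPM in control (SD, n = 6) and 46.8 ± 11.8 CPM in Rag2-/- astrocytes (n = 6), 98.6 ± 14.1 and 102 ± 7.84 CPM in microglia, 73.7 ± 27.3 and 59.9 ± 13.9 CPM in oligodendrocytes (n = 4), and in OPCs it ran from 65.6 to 98.2 CPM in controls and from 65.9 to 88.1 CPM in Rag2-/- mice. The genotypes overlapped in each of the 4, and the common log2 fold change was -0.02 (SE 0.09, 95% interval of the mouse averages -0.18 to 0.15). Of 54 genes tested within 5 Mb of Rag2, 1 was called, Iftap itself, and 2 had an unadjusted p under 0.05 (3.70%, against 3.45% of all genes tested). Their median log2 fold change was 0.04, beside 0.02 over all genes.

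**Figure D2:**
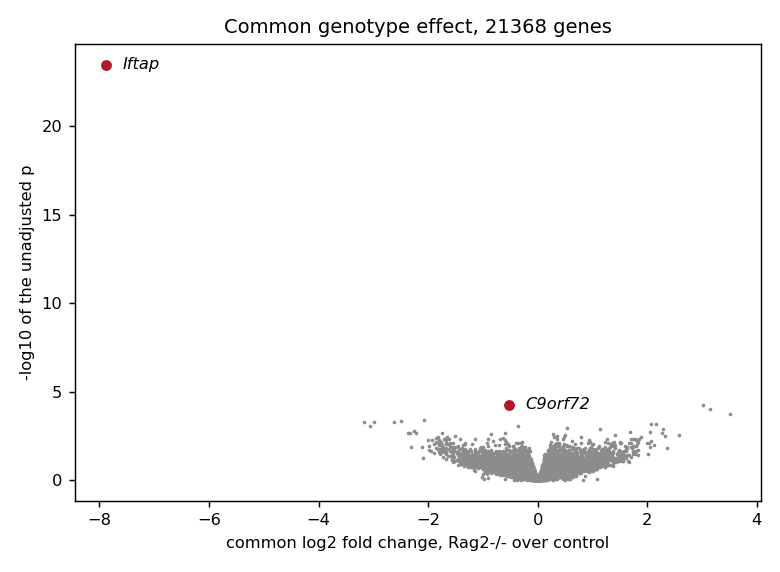
Common log2 fold change of Rag2-/- over control (horizontal axis) against -log10 of the unadjusted p (vertical axis) for 21368 genes, 1 point each. Iftap stands alone at a log2 fold change of -7.88, and C9orf72, with the next smallest p, lies at -0.52 with an adjusted p of 0.405.

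Apart from Iftap, no gene was called, and 737 genes (3.45%) had an unadjusted p under 0.05, 334 of them lower (1.56%) and 403 higher (1.89%). Of the 11503 genes, 1414 (12.3%) had a fold change of 1 sign in all 4 cell types, 733 lower (6.37%) and 681 higher (5.92%). The 4 comparisons use cells of the same mice, so this count is a description. Unrelated effects also agree in sign for a share of genes, so the count alone does not show a shared movement. By plain differences of mean log2 CPM the count was 1520, of which 542 were lower and 978 higher, so the balance of directions depends on the model. Only Iftap exceeded 1.5-fold in each cell type (0.00869%). Under the alternatives run, 0 to 4 genes did so. The 95% interval of the mouse averages lay within 2-fold in either direction for 11182 genes (97.2%) and within 1.5-fold for 8435 (73.3%). For the other genes the interval reached past these bounds in at least 1 direction. Oligodendrocytes varied most, with a biological coefficient of variation of 0.602 against 0.246 to 0.284 in the others, and a median SE of 0.58 against 0.19 to 0.21.

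C9orf72 had the smallest p after Iftap. It encodes a subunit of a complex that works in autophagy and lysosomal traffic, and a repeat expansion in the human gene causes amyotrophic lateral sclerosis and frontotemporal dementia. In GRCm39 it lies at chr4:35191282-35226186 on the minus strand. In astrocytes the controls ran from 10.04 to 13.6 CPM (median 13.5) and the Rag2-/- libraries from 6.54 to 10.8 CPM (median 9.29). In oligodendrocytes the 4 controls had 80, 83, 109 and 92 counts (9.97 to 20.7 CPM) and the 4 Rag2-/- libraries 52, 58, 28 and 30 counts (4.20 to 7.41 CPM). In OPCs the controls ran from 11.8 to 22.4 CPM (median 16.3) and the 5 Rag2-/- libraries had 266, 166, 298, 107 and 231 counts (8.55 to 17.5 CPM). In microglia, where the gene was most abundant, the ranges were 79.0 to 115 CPM (median 95.6) and 83.3 to 99.5 CPM (median 91.8). The genotypes separated in oligodendrocytes and overlapped in the other 3 types, and 17 of 21 littermate comparisons were lower. C9orf72 was picked by its p in these same libraries, and the share of all genes separating in oligodendrocytes was not counted.

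The common log2 fold change of C9orf72 was -0.52 (SE 0.12, edgeR adjusted p = 0.405), and it did not pass the threshold. Over the 12 mice the difference was -0.51 (95% interval -0.77 to -0.26, limma adjusted p = 0.9996), and no control mouse overlapped a Rag2-/- mouse. Such separation of mouse averages was found for 6 genes in the lower direction (0.0522%) and 13 in the higher (0.113%). DESeq2 on all genes gave C9orf72 an adjusted p of 0.00516, the 1 setting of 30 in which it was called. Its log2 fold change was -0.34 without oligodendrocytes and ran from -0.72 (without microglia) to -0.19 (limma voom with sample weights) over the 30 settings.

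The other protein-coding genes that were lower in all 4 cell types with the smallest p were Ddx10, Exosc9, Pi4k2b, Eps8l1, Tlr4, Lin37, Polr1e, Gtf2f1, Bola2 and Cep250, with an edgeR adjusted p of 0.9994 each. They were picked by their p in these same libraries, so their values are a description. Ddx10, a helicase of ribosome assembly, had a log2 fold change of -0.36 (SE 0.10) and between -0.41 and -0.29 in the single cell types. Exosc9, a core subunit of the RNA exosome, stood at -0.60 (SE 0.19), but its estimate was -2.44 in oligodendrocytes and -0.10 in microglia. Polr1e, a subunit of RNA polymerase I, stood at -0.81 (SE 0.28) and Gtf2f1, a subunit of the general factor TFIIF, at -0.28 (SE 0.10). Tlr4, the receptor for bacterial lipopolysaccharide, stood at -0.68 (SE 0.23). In microglia Tlr4 had a median of 41.2 CPM in controls and 37.0 CPM in Rag2-/- mice, whereas in the other cell types its medians were under 5 CPM. Over the 30 alternatives Tlr4 ran from -0.99 to -0.20, Exosc9 from -0.80 to -0.28 and Polr1e from -1.09 to -0.09 (pairs 1, 3 and 6 alone), and without control replicate 5 Polr1e stood at -0.54.

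Those higher in all 4 cell types with the smallest p were Kctd4, Slc2a1, Rnps1, Mvk, P2ry14, Bbip1, Junb, Cenpb, Flnc, Mlip, Nherf1 and Paip1, again with an adjusted p of 0.9994 each. Kctd4 led them, at a log2 fold change of 0.54 (SE 0.15) and higher in 18 of 21 littermate comparisons. In oligodendrocytes the controls had 26.8, 13.6, 12.7 and 12.4 CPM of Kctd4 and the Rag2-/- libraries 16.5, 40.5, 46.7 and 47.0 CPM, and the groups overlapped. Slc2a1, the glucose transporter GLUT1, stood at 0.28 (SE 0.09), with medians of 172 and 189 CPM in control and Rag2-/- astrocytes. P2ry14, a receptor for UDP-sugars, stood at 0.78 (SE 0.25), Mvk, the mevalonate kinase of cholesterol synthesis, at 0.49 (SE 0.16), and Flnc, an actin crosslinker, at 0.92 (SE 0.33) on few counts. Slc2a1 stood at 0.18 without Rag2-/- replicate 1, and limma voom with sample weights gave Mvk 0.30. All exonic bases of Cenpb are shared with other annotated genes, so its counts are uncertain.

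**Figure D3:**
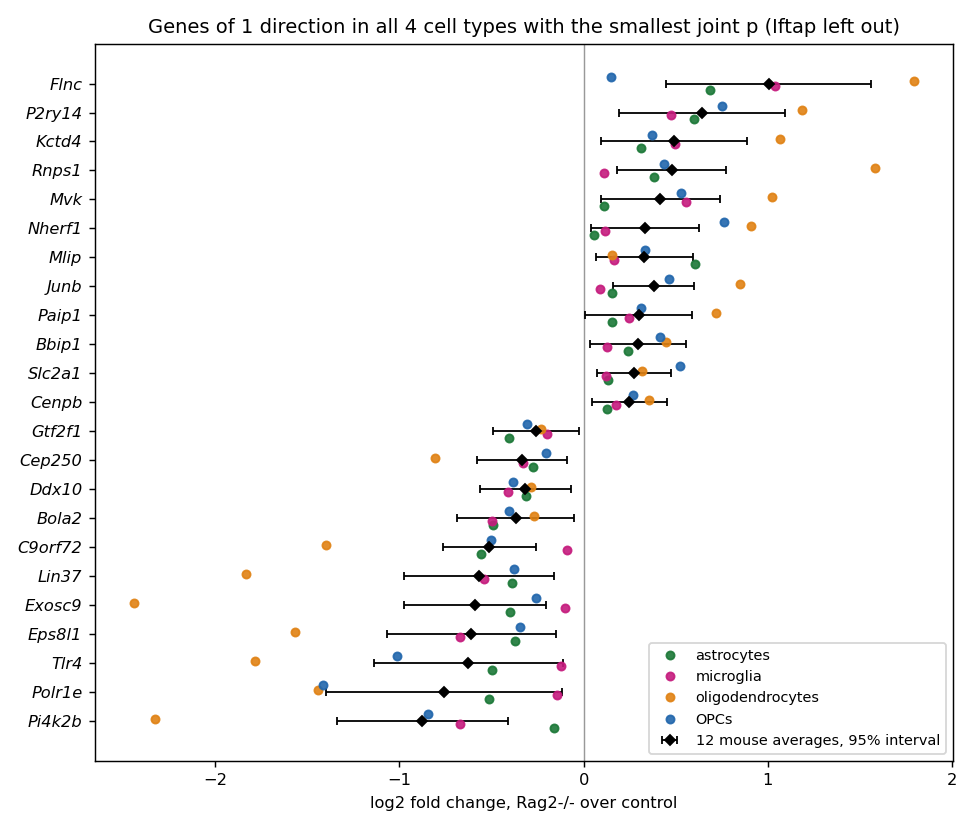
Log2 fold change of Rag2-/- over control (horizontal axis) for the genes of 1 direction in all 4 cell types with the smallest joint p, Iftap left out. Coloured points are the fits of single cell types and black diamonds the difference over 12 mouse averages with its 95% interval, and oligodendrocytes lie farthest from 0 for most genes.

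**Figure D4:**
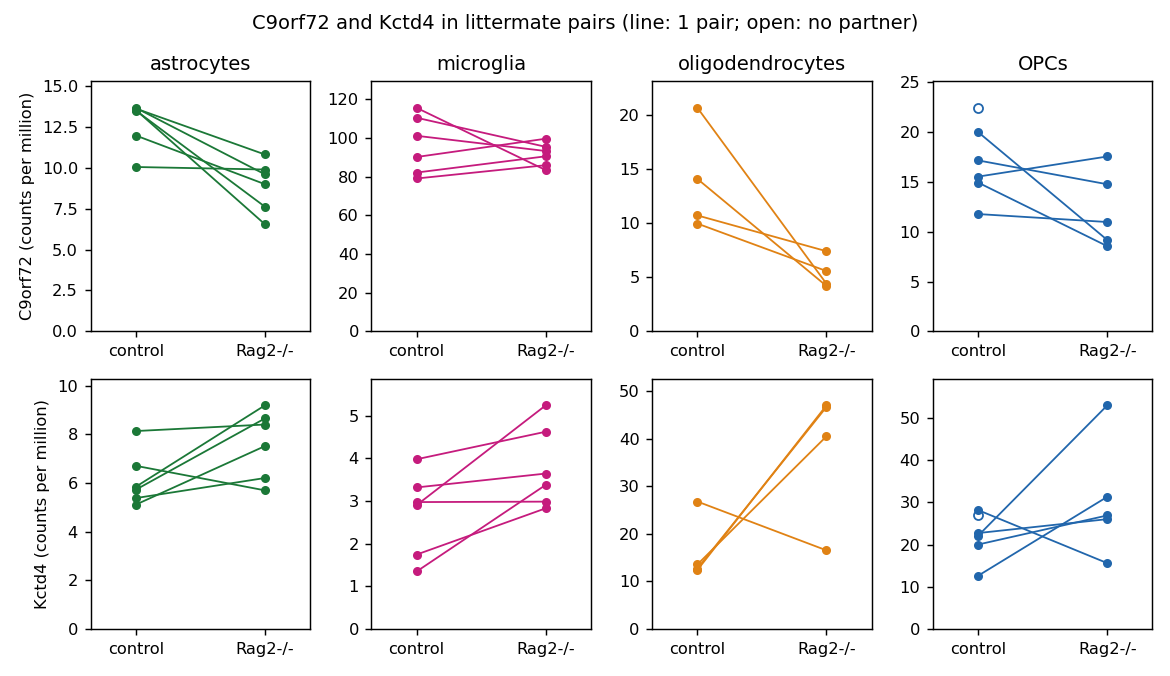
C9orf72 (upper row) and Kctd4 (lower row) in CPM by littermate pair, with control on the left and Rag2-/- on the right of each panel. Lines join littermates, and the open symbol is the control OPC library without a partner. Of 21 lines, 17 fall for C9orf72 and 18 rise for Kctd4.

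Pathways through which lymphocytes could reach glia showed no called member in the common fit. T cells and NK cells secrete interferon gamma, which raises the interferon response and antigen presentation in target cells. Of 21 interferon response genes tested, 0 were called and the median log2 fold change was 0.00. An unadjusted p under 0.05 was found for 2 (9.52%, against 3.45% of all genes tested), both lower. These were Ifit2 (-0.43, SE 0.19) and Ifit3 (-0.49, SE 0.24). Over the alternatives Ifit2 ran from -0.58 to -0.20 and Ifit3 from -0.69 to -0.13. Ifit2 encodes an antiviral RNA-binding protein, and its microglia medians were 3.97 CPM in controls and 1.63 CPM in Rag2-/- mice. Of 12 genes of MHC class I presentation 0 were called (median 0.04), with Tap2, a subunit of the peptide transporter, at 0.71 (SE 0.33, unadjusted p = 0.037, 0.45 to 1.02 over the alternatives). Of 8 genes of MHC class II presentation 0 were called (median -0.08), and of 18 receptors for lymphocyte cytokines 0 were called (median 0.04), with Ifnar2 closest at 0.25 (SE 0.13, 0.05 to 0.37 over the alternatives).

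Genes that act beside Rag2 in recombination were likewise uncalled. Of 18 genes of DNA end joining, which repair the breaks made by the recombinase and other breaks, the median log2 fold change was -0.07. An unadjusted p under 0.05 was found for 2 of them (11.1%, against 3.45% of all genes tested). These were Rnf168, a ubiquitin ligase at DNA breaks (-0.30, SE 0.12), and Dclre1c, the Artemis nuclease (-0.35, SE 0.15), and over the alternatives they ran from -0.42 to -0.07 and from -0.52 to -0.18. Rnf168 differed between cell types (edgeR interaction, adjusted p = 0.0247), a call kept in 1 of 5 alternatives and lost with the littermate pair as a block, without a filter on low counts, with sample weights in limma voom and without oligodendrocytes. It had medians of 26.7 and 9.31 CPM in control and Rag2-/- oligodendrocytes and of 18.7 and 19.7 CPM in astrocytes.

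Lists that follow hormone, daily rhythm or handling were close to 0. The median log2 fold change was -0.05 over 20 clock genes, 0.02 over 16 glucocorticoid response genes, 0.03 over 22 immediate early genes and 0.06 over 19 heat shock and endoplasmic reticulum stress genes. None of these genes was called, and Junb (0.35, SE 0.12) and Btg2 (0.29, SE 0.13) alone among them had an unadjusted p under 0.05. Those 2 were 9.09% of the immediate early genes, against 3.45% of all genes tested. Cry1, a repressor of the clock, stood at -0.26 (SE 0.14), and Fkbp5, a chaperone induced by glucocorticoids, at -0.30 (SE 0.23). Fkbp5 stood at -0.18 without control replicate 2 and Btg2 at 0.19 without Rag2-/- replicate 3, and over the alternatives Junb ran from 0.15 to 0.46. Lists of glial function gave 0.07 over 15 myelin genes and 0.09 over 22 genes of cholesterol synthesis. Cell cycle genes had a median of 0.00 over 22, and none was called. Of them 3 were higher at an unadjusted p under 0.05 (Birc5, Mcm5 and Plk1), which is 13.6%, against 3.45% of all genes tested. Cytosolic ribosomal proteins (80 tested, median 0.04), respiratory chain subunits (85, median 0.03) and proteasome subunits (38, median 0.01) had 1 gene in all at an unadjusted p under 0.05. This was Psmd12 at -0.19 (SE 0.09, -0.25 to -0.09 over the alternatives), or 2.63% of the proteasome subunits, against 3.45% of all genes tested.

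The 10 mitochondrially encoded genes tested had a median log2 fold change of 0.19, with no call. Of them 4 were higher at an unadjusted p under 0.05 (40.0%, against 3.45% of all genes tested). By cell type their median was 0.34 in astrocytes, 0.12 in microglia and 0.24 in OPCs but -0.06 in oligodendrocytes. Of the 9 with enough counts everywhere, 1 had 1 sign in all 4 cell types (11.1%, against 12.3% of all genes judged). One of the 4 with an unadjusted p under 0.05 was mt-Rnr2, the large ribosomal RNA of mitochondria, at 0.20 (SE 0.09). It stood at -0.04 in oligodendrocytes and was higher in 19 of 21 littermate comparisons. With the mouse as a random block, limma voom called mt-Rnr2 (0.20, adjusted p = 7.27e-09), the 1 setting of 30 that did, and it stood at 0.12 without Rag2-/- replicate 6. The share of counts on mitochondrial genes was 2.15 percentage points higher in Rag2-/- mice over mouse averages (exact two-sided permutation p = 0.197). Depth moved with genotype as well: Rag2-/- libraries were 1.20-fold deeper and deeper in 19 of 21 littermate comparisons (exact two-sided permutation over 12 mice, p = 0.0216). The part of depth in these values was not tested beyond thinning every library to the shallowest depth, which left Iftap as the single call.

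**Figure D5:**
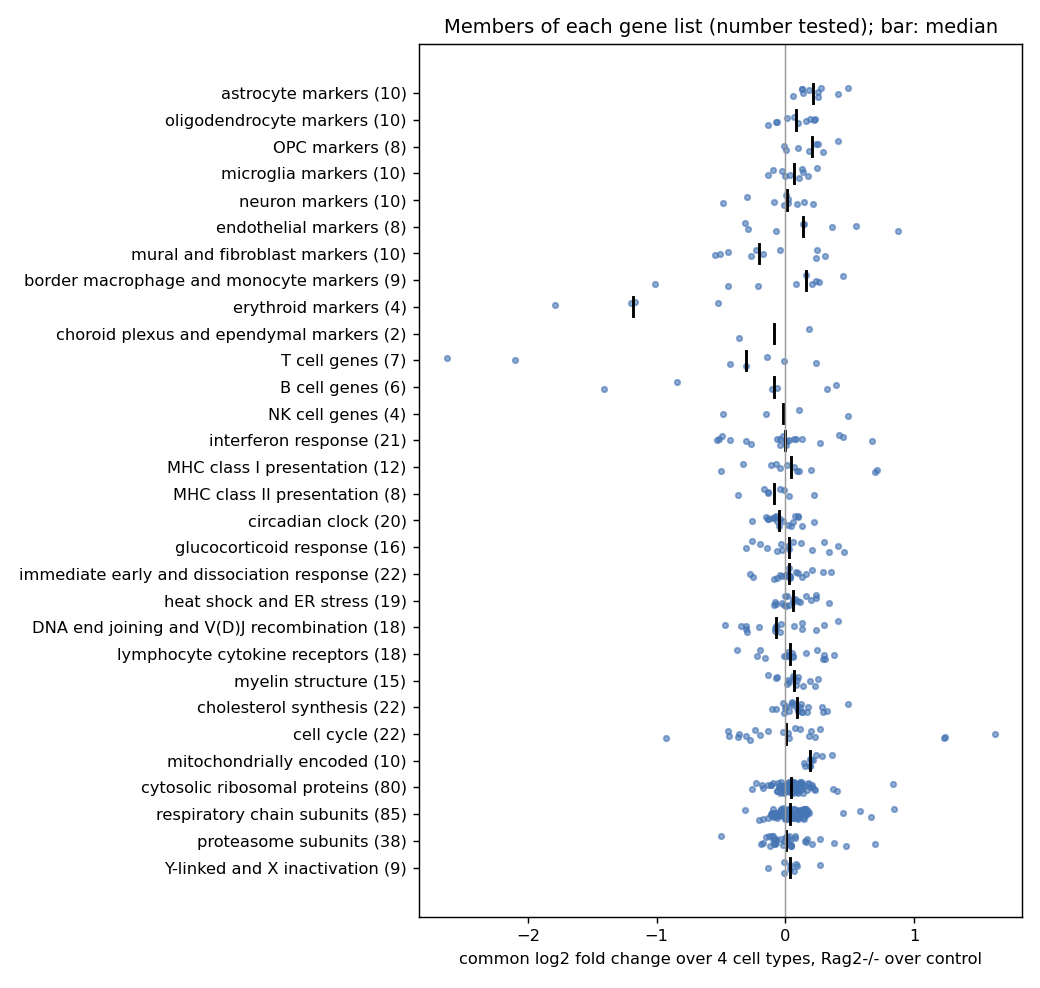
Common log2 fold change of Rag2-/- over control (horizontal axis) for the members tested of each gene list (rows, with the number tested), where points are genes and black bars medians. Medians of the pathway lists lie between -0.08 and 0.19, and those of erythroid markers and T cell genes lie lowest, at -1.18 and -0.30.

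Markers of T, B and NK cells were measured beside these lists, of which the Rag2-/- mice lack T and B cells. Of 12 T cell genes 7 had enough counts to be tested and 0 were called, with a median of -0.30. Cd8a, a coreceptor of cytotoxic T cells, stood at -2.63 (SE 0.70, unadjusted p = 0.000491, adjusted p = 0.9994, -3.08 to -1.67 over the alternatives). Cd3e, a signalling chain of the T cell receptor, had 8 to 39 counts in the 6 control microglia libraries and 0 in the 6 of Rag2-/- mice. In astrocytes Cd3e had no count in either genotype, and in OPCs it had 1 count in controls and 0 in Rag2-/- mice. In oligodendrocytes 1 Rag2-/- library held 18 counts of Cd3e and all others 0. Over all cell types its log2 fold change was -2.10 (SE 1.08, adjusted p = 0.9994), without oligodendrocytes it was -5.40 (edgeR adjusted p = 0.0156), and without Rag2-/- replicate 3 it was -4.69 with no call. The summed level of the 12 T cell genes in microglia was 26.4 to 46.6 CPM in controls and 21.9 to 32.5 CPM in Rag2-/- mice. Bulk samples do not show which cells gave the counts of T cell genes that were found in Rag2-/- libraries. Of 6 B cell genes and 4 NK cell genes tested, 0 were called (medians -0.09 and -0.02), and in microglia the NK cell genes summed to a median of 5.44 CPM in controls and 6.46 CPM in Rag2-/- mice.

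Of 5 erythroid markers 4 were tested and 0 called. Their summed level in microglia had a median of 70.7 CPM in controls and 48.8 CPM in Rag2-/- mice, with overlapping ranges, and in control astrocytes a median of 2.38 CPM and a highest value of 397 CPM. In the common fit Hba-a1, an alpha globin, stood at -1.79 (SE 0.83) but at -0.70 without control replicate 1.

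Markers of the purified cells matched the labels, each list being highest in its own cell type. OPC libraries of Rag2-/- mice held more of the astrocyte markers (all 10 with counts, summed median 4217 CPM, range 2552 to 6204) than those of controls (median 2797, range 2215 to 3267). The same held for the 10 oligodendrocyte markers in OPCs, with medians of 1032 and 507 CPM and overlapping ranges. Endothelial markers in OPCs had medians of 94.2 CPM in Rag2-/- mice and 46.1 CPM in controls, and mural and fibroblast markers 300.1 and 160 CPM, with overlapping ranges as well, whereas in oligodendrocytes the mural and fibroblast markers were the lower ones in Rag2-/- mice (medians 35.4 and 65.2 CPM, overlapping). Astrocyte markers had a median common log2 fold change of 0.22 with 0 of 10 called, and Fgfr3, a growth factor receptor, stood at 0.49 (SE 0.20) with 0.90 in OPCs and -0.05 in astrocytes, and ran from 0.12 to 0.73 over the alternatives. The part of these markers in the common effect was not tested. Counts on genes ran from 6499417 to 23118497 per library, with a median of 10447042.

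The interaction test asked where the genotype effect was not common. It called 53 of 21368 genes (0.248%), and in 49 of them the oligodendrocytes stood farthest from the other types, as they did in 10844 of all 21368 genes. Zfp219, a zinc finger protein, led with an adjusted p of 0.000131. In oligodendrocytes Zfp219 had 5.36, 2.97, 6.07 and 5.97 CPM in the 4 controls and 0.107, 0.639, 0.786 and 0.140 CPM in the 4 Rag2-/- libraries. Its log2 fold change was between -0.11 and 0.03 in the other types. The genes named here were picked by their p in these same libraries, so their values are a description. Smad5, which carries signals of bone morphogenetic proteins, had a log2 fold change of 1.13 (SE 0.28) in oligodendrocytes and between -0.10 and -0.06 elsewhere. Notch3, a Notch receptor, had 10 to 38 counts in the control oligodendrocyte libraries and 1 count in all in those of Rag2-/- mice. Mural cells, which surround vessels, are known to express Notch3, and the 10 mural and fibroblast markers summed in oligodendrocytes to a median of 65.2 CPM in controls (highest 182) and 35.4 CPM in Rag2-/- mice (highest 58.4), with overlapping ranges, 9 of the 10 with counts and Lum at 0 in both genotypes. Over the members with enough counts to be fitted in oligodendrocytes, the median log2 fold change was -2.39. A gene could pass that filter through 1 genotype alone, so this median describes only a part of the list. Dcn, a proteoglycan of fibroblasts, had 8 to 75 counts in the controls and 0 to 2 in the Rag2-/- libraries. The part of these markers in the interaction calls was not tested. Ly6a had 4, 5, 23 and 8 counts in the control oligodendrocyte libraries and 0 in the 4 of Rag2-/- mice. In OPCs the genotypes also did not overlap for Ly6a, which by itself does not give the direction there. Nek3 also had 0 counts in the 4 Rag2-/- oligodendrocyte libraries, but its controls there had 21, 17, 0 and 50 counts, so the groups overlapped. Without oligodendrocytes the interaction called 0 of 20146 genes, with 1077 at an unadjusted p under 0.05, and limma voom with sample weights per cell type called 3. Zfp219, Smad5, Notch3, Ly6a and Nek3 each lost their call in these 2 of 5 alternatives. DESeq2's likelihood ratio test on all genes called 438 and edgeR without a filter on low counts 1011, both with oligodendrocytes.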

How the data were processed

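The authors deposited raw counts, which give the read pairs assigned to each gene in a library without normalization. The submitters' processing notes name STAR 2.7.8a, HTSeq and GRCm39, and the counting mode and strand setting are not given in the sources used here. Sums of pairs on no gene (33.5% to 52.0% of a library) stayed out. Of 55416 gene identifiers, 54749 matched GENCODE M39.

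Analyses used R 4.3.3, edgeR 4.0.16, limma 3.58.1, DESeq2 1.42.0 and Python 3.11.15 (pandas 2.3.3, numpy 2.4.6, scipy 1.17.1, matplotlib 3.10.9). The common effect was fitted over 43 libraries with TMM scaling, terms for cell type and sex, and filterByExpr over 8 groups (minimum count 10, minimum total 15). Tests were two-sided with a Benjamini-Hochberg threshold of 0.05. The mouse check used limma with trend on centred log2 CPM (prior count 2), and single cell types were fitted separately. The scripts were tested on simulated counts. Libraries of a group differed by at least 8.94 in chi-square per gene, so none was a copy of another's counts. This value cannot show that each came from a mouse of its own. The floors cover counting error only, and the intervals over mouse averages carry the spread between mice.

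Pairing comes from the labels' numbers and the study's littermate design. Deviations of littermates' mouse averages correlated by 0.0641 to 0.381 (mean 0.165), against a mean of -0.114 for different pairs. Centring by itself makes correlations between mice negative on average. Littermates always differed in genotype and mostly shared their sex, whereas different pairs also included mice of the same genotype. These means are therefore not like for like, and the comparison cannot check the pairing. Which libraries share a mouse was read from pair number and genotype.

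The members and lists were chosen with earlier results of these data known. Genes were named if they were Rag2, Rag1, Iftap or their neighbours, if they were called, if they were among the 12 protein-coding genes a direction with the smallest p and 1 sign in all 4 types, or among each list's 4 smallest p. From these the text gives a selection, and Notch3, Smad5, Zfp219, Ly6a and Nek3 led the interaction. Alternatives were other size factors, filters, tests and model terms, the pair as a block, subsets of samples and each mouse left out.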

Additional observations from a re-analysis of the deposited data

Results flagged for a closer look

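Values were checked for a sample far from the rest of its group in 90 groups of 4 to 6 mouse averages or libraries. Of these groups, 7 stood out. Chance marks about 1 in 20 of independent groups with a normal distribution, which these are not, so the 2 are not compared. Where all other libraries were at 0, as for Iftap in Rag2-/- OPCs, microglia and oligodendrocytes, any single count was marked. Rag2-/- replicate 6 held all Iftap counts of its genotype, with 0.0740 CPM in OPCs, 0.0910 CPM in microglia and 0.280 CPM in oligodendrocytes, and its mouse average of -2.09 was apart from the other 5 Rag2-/- mice. The OPC library of that mouse was also the deepest, with 23118497 counts on genes. The mouse average of Cry1 in Rag2-/- replicate 5 was -0.88 on the centred log2 CPM scale, the lowest of its group. For P2ry14 that of control replicate 2 was -1.15, the lowest among controls.

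The effect of genotype differed between cell types by edgeR's interaction test for Zfp219 (adjusted p = 0.000131), Smad5 (0.00142), Notch3 (0.00142), Ly6a (0.00506), Nek3 (0.00506) and Rnf168 (0.0247). With sample weights per cell type in limma voom, all 6 had an adjusted p above the threshold.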

How the results depend on the processing

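Iftap was called, and lower, in the common fit under all 30 alternatives and in the mouse check under all 16. The common genotype effect had 1 call, and with each mouse left out 1 to 2 calls. There were 2 calls without a filter (the other Gm44812), with the mouse as a random block in limma voom (mt-Rnr2), without oligodendrocytes (Cd3e), with sample weights (Rn18s-rs5) and without Rag2-/- replicate 1 (Gm48334), and 48 with DESeq2 on all genes. These were mostly genes of few counts, and the cause was not tested. The genes moving the same way in all 4 cell types numbered 1414, 870 at a mean count of at least 50 in every cell type, where fewer genes were judged, and 1406 to 1565 with a mouse left out. The genotype by cell type interaction called 438 genes with DESeq2's likelihood ratio test on all genes, where test and filter both changed, 1011 without a filter, 3 with limma voom and sample weights, where test and weights both changed, 0 without oligodendrocytes and 34 with the littermate pair as a replicate block, of which 30 were among the 53. With that block the common effect and the mouse check each had 1 call, Iftap. It left 1489 genes with 1 sign in all 4 cell types, of which 2 exceeded 1.5-fold in each. Traf6 turned positive with a sex term in each cell type (0.0048), without oligodendrocytes (0.0155) or OPCs (0.0093), and ran from -0.0655 to 0.0033 with a mouse left out. Cd3e stood at 0.59 in pairs 1, 3 and 6. Weighted and thinned fits, the comparison of control alleles and the fits without oligodendrocytes in the interaction were chosen after seeing the data. Depth limits Rag2 and Rag1, with at most 4 and 12 counts in a library, and Cd3e, with at most 39.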
